A study of Homo sapiens with 12 samples.

Results

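A set of 10 plasma membrane transporter genes was described, which move amino acids, help to form such carriers or, in SLC6A12, move betaine and GABA. All 10 were found among the 61806 Ensembl gene IDs of the count table, by matching IDs to symbols: SLC7A5, SLC3A2, SLC7A11, SLC7A1, SLC1A5, SLC38A1, SLC38A2, SLC38A5, SLC6A12 and SLC6A14. They were picked with earlier results of these libraries known. SLC38A5 and SLC6A12 were picked for their response to CD146 knockdown and SLC6A14 for its response to CD146 overexpression, so in those contrasts, in the difference of effects between lines and between the control libraries, their values are a description without a test.

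The study measured poly(A)-selected RNA in 12 libraries, 3 per group, from human cells labelled as the liver cancer lines Hep3B and HepG2. In these cells CD146 (gene MCAM, a cell adhesion glycoprotein) was lowered or raised. Cells labelled Hep3B, grown in DMEM with 10% FBS, carried a Tet-on system that expresses either a control shRNA ("Con sh") or an shRNA against CD146 ("CD146 sh"). HepG2 cells, grown in MEM with 10% FBS and sodium pyruvate, received the pLVX vector or a CD146 vector ("CD146oe"). Every group carried a construct, and no parental cells are among the libraries. The inducer, its dose and duration, the number of shRNAs and the clonality of the lines are not given in the sources used here. The labels also do not say whether the 3 libraries of a group came from separate cultures, so the error behind each p-value is that among these libraries and may be technical.

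Amino acids cross the plasma membrane on carriers that divide the work. The heterodimers of the SLC3A2 heavy chain (4F2hc) with a light chain exchange substrates: SLC7A5 (LAT1) imports leucine and other large neutral amino acids, which feed mTORC1, and SLC7A11 (xCT) imports cystine in exchange for glutamate and so supplies glutathione synthesis. Sodium-coupled carriers such as SLC38A2 (SNAT2) and SLC1A5 (ASCT2) accumulate or exchange small neutral amino acids, glutamine included. In normal liver SLC7A5 is low, and many tumours, liver cancers among them, carry more of it.

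The start regions of some members were read from RefSeq promoter windows of GRCh38.p14. Each window spans 250 bases before to 50 bases after an annotated start, and a gene can have several. Of the 10 members 8 had a window, and SLC6A12 and SLC7A11 had no entry. The search for 3 motifs covered both strands. The C/EBP-ATF response element TGATGNAA, through which ATF4 acts on genes of amino acid supply, was in 4.46% of all 27305 genes with a window and in SLC3A2, SLC1A5, SLC38A1 and SLC7A1. The E-box CACGTG, bound by MYC and related factors, was in 8.77% of genes and in SLC7A5, SLC38A5 and SLC1A5. The antioxidant response core TGACNNNGC was in 16.1% of genes and in SLC7A5, SLC3A2, SLC1A5 and SLC7A1. Genes with several windows have more chances to match, and a match is not evidence of binding. SLC3A2 and SLC1A5 had 3 windows each and SLC38A1 had 2. The matches shown for these genes lie inside the annotated gene span, away from its outer start, and those of SLC1A5 lie in different windows. These pieces are shown because members that hold the same letters did not share a direction in the values that follow (5′ to 3′ on the gene's strand, match in capitals):
SLC3A2, chr11:62881719-62881748, plus strand: gtaatgtgcaggactccTTACATCAgctcc
SLC38A1, chr12:46266502-46266531, minus strand: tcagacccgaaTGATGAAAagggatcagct
SLC7A1, chr13:29595663-29595692, minus strand: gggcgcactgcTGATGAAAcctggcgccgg
SLC1A5, chr19:46784893-46784922, minus strand: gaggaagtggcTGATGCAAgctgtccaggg
The SLC3A2 match is the complement of the motif. The E-box pieces of the members compared below are:
SLC7A5, chr16:87869620-87869649, minus strand: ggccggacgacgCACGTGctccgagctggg
SLC38A5, chrX:48470449-48470478, minus strand: tcctgtagcggaCACGTGgcttgcctggga
SLC1A5, chr19:46787326-46787355, minus strand: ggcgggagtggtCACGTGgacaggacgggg
The 150 bases just before the start of SLC7A5, the member with the largest tested fall, are G- and C-rich, with the E-box in capitals:
SLC7A5, chr16:87869508-87869657, minus strand: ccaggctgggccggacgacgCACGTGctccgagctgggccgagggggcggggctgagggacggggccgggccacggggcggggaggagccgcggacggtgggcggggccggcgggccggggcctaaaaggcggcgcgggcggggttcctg

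Library totals ran from 12772991 to 18129816 counts, so 3 counts, the most that a count of 0 allows, are worth 0.165 to 0.235 CPM, a unit of counts scaled to the library total. This limit covers counting error only. MCAM itself was 15.6 ± 0.505 FPKM in Con sh and 3.23 ± 0.297 in CD146 sh, and 3.07 ± 0.0666 in pLVX and 266 ± 3.5 in CD146oe (SD, n = 3 each). The libraries labelled Hep3B lacked the hepatocyte signature: 10 hepatocyte markers (albumin, apolipoproteins and others) summed to 0.42 to 1.02 CPM in Con sh, with 3 of the 10 at 0 in all its libraries, against 55841 to 63409 CPM over both HepG2 groups. In CD146 sh the sum was 1.05, 1.74 and, in replicate 3, 66.5 CPM, which is 0.112% of the HepG2 level. The near absence of these markers goes against the label of a liver line. The identity of the cells labelled Hep3B was not tested. A set of 5 endothelial markers summed to 2.88 to 3.48 CPM in Con sh, with 2 of the 5 at 0 in all its libraries, and to 23.5 to 24.3 in CD146 sh, and 6 fibroblast and stellate markers to 58.4 to 67.1 and 93.4 to 116 CPM. The 5 cholangiocyte markers summed to 190 to 205 CPM in Con sh and 160 to 164 in CD146 sh, and to 346 to 364 in pLVX and 486 to 500 in CD146oe. The 5 leukocyte markers summed to at most 1.84 CPM in the libraries labelled Hep3B and to 987 to 1337 CPM in HepG2, where only LYZ reached 10 CPM. Whether these shifts have a part in the results below was not tested. In bulk RNA, fewer cells of a kind and less RNA per cell cannot be told apart.

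Levels between genes were compared in FPKM, the authors' values scaled for gene length and depth. In Con sh the order was SLC38A2 (242 FPKM), SLC7A5 (150), SLC38A1 (135), SLC1A5 (77.2), SLC3A2 (47.9), SLC7A1 (31.5), SLC7A11 (7.97), SLC38A5 (2.86) and SLC6A12 (0.35), with SLC6A14 at 0. SLC38A2 also led in the other groups, and within each of the 4 groups no pair of neighbours in the order overlapped over its 3 libraries. SLC7A5 had rank 2 in Con sh, pLVX and CD146oe and rank 4 in CD146 sh, behind SLC38A2, SLC38A1 and SLC1A5. SLC38A5 had rank 7 in both HepG2 groups, above SLC7A11, and rank 9 in CD146 sh.

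**Figure D1:**
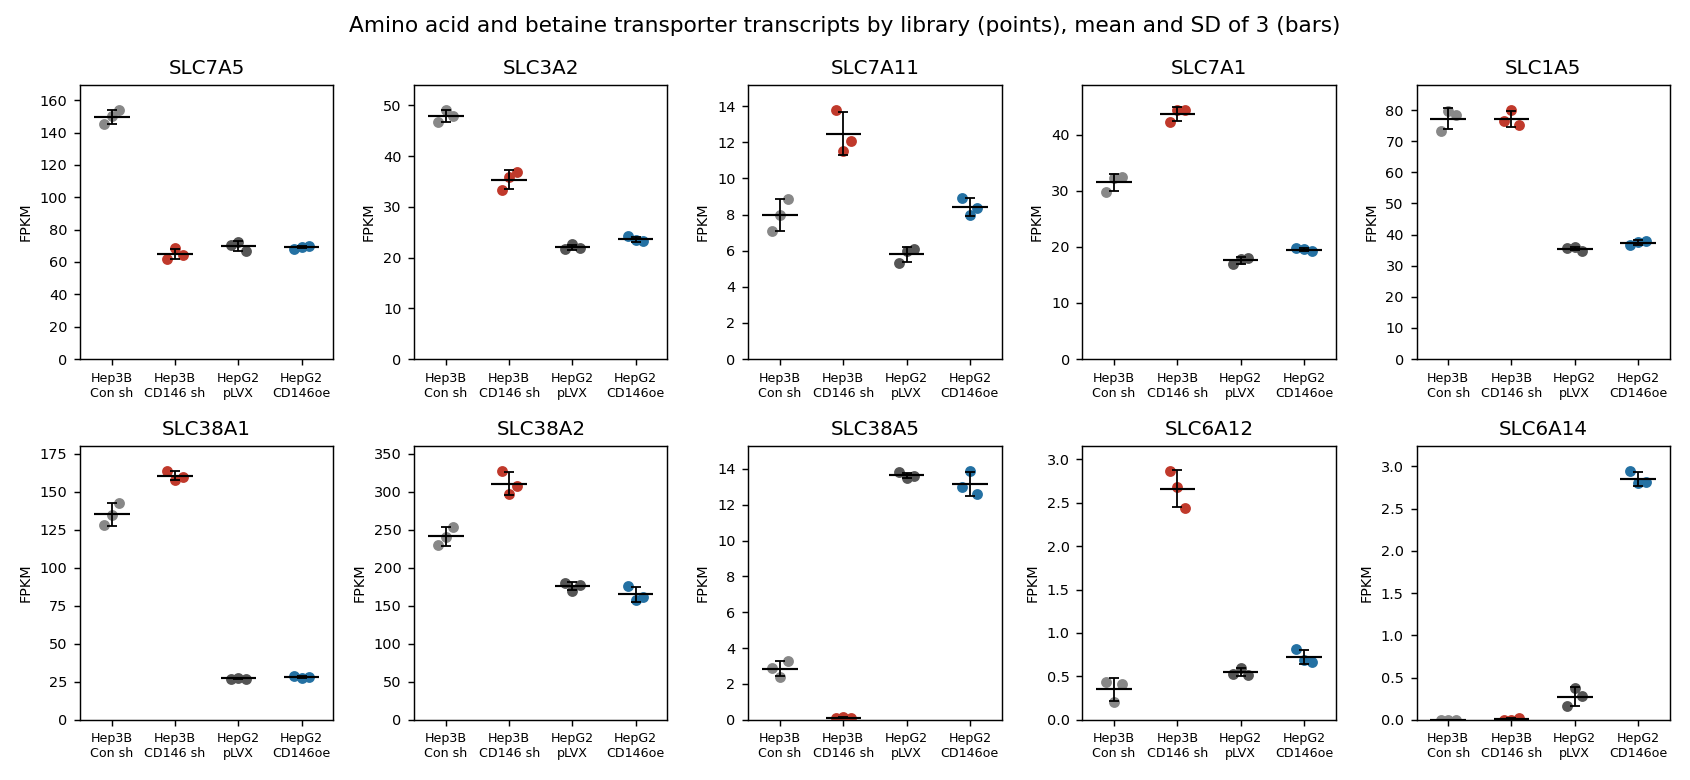
FPKM (vertical axis from 0, its own scale in each panel) of the 10 members in each library (points), with the mean and SD of 3 libraries, for the groups labelled Hep3B Con sh, Hep3B CD146 sh, HepG2 pLVX and HepG2 CD146oe. SLC7A5 falls from 150 to 65 FPKM with the CD146 shRNA and lies at 69.9 and 69.2 in the HepG2 groups, while SLC38A5, SLC6A12 and SLC6A14 are each near 0 in at least 1 group.

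After CD146 knockdown the pair that forms the leucine carrier was lower, while the cystine carrier SLC7A11, the arginine carrier SLC7A1 and the glutamine carriers SLC38A2 and SLC38A1 were higher. SLC7A5 fell 2.24-fold and SLC3A2 1.32-fold, while SLC7A11 rose 1.61-fold, SLC7A1 1.42-fold, SLC38A2 1.32-fold and SLC38A1 1.22-fold. Of the 7 tested members not picked by this contrast, 4 rose, 2 fell and SLC1A5 was not called. The background is dense: of 16968 genes tested in these 6 libraries 55.3% were called (edgeR quasi-likelihood test, adjusted p under 0.05), 26.8% as higher and 28.5% as lower, and the median gene moved by 0.29 in absolute log2 terms. The median member change was 0.29 with sign, against 0.00 over all tested genes.

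SLC7A5, which carries leucine, isoleucine, phenylalanine, tryptophan and methionine, was at 145, 150 and 154 FPKM in the Con sh libraries and at 62.1, 68.4 and 64.6 in the CD146 sh libraries. Every knockdown library lay below every control library. The log2 fold change was -1.16 (SE 0.04, edgeR adjusted p = 3.7e-24). The gene lies on chromosome 16, minus strand, at 87830023 to 87869488 in the GENCODE 29 annotation of GRCh38. The antisense transcript and the microRNA gene annotated across it were each under 1 CPM in every group, beside 315 to 705 CPM for SLC7A5.

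SLC3A2, the heavy chain that brings the light chains to the plasma membrane, was at 46.8, 49.1 and 47.8 FPKM in Con sh and 33.3, 35.9 and 36.8 in CD146 sh. The groups did not overlap, and the log2 fold change was -0.40 (SE 0.04, edgeR adjusted p = 3.7e-10). The fall was smaller than that of its partner. The SLC7A5 to SLC3A2 ratio of FPKM was therefore 3.12 ± 0.0814 in Con sh and 1.84 ± 0.0796 in CD146 sh, while in pLVX it was 3.17 ± 0.107 and in CD146oe 2.94 ± 0.1 (SD, n = 3 each).

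SLC7A11, the cystine/glutamate exchanger light chain, was at 7.07, 8 and 8.85 FPKM in Con sh and 13.8, 11.5 and 12.1 in CD146 sh. All knockdown libraries were above all control libraries, with a log2 fold change of 0.68 (SE 0.06, edgeR adjusted p = 9.1e-13). Its antisense gene SLC7A11-AS1 was at 1.52 CPM in Con sh and 3.16 in CD146 sh, against 76.1 and 122 CPM for SLC7A11. The strand setting of the counting is not given in the sources used here, so reads of this antisense pair cannot be told apart.

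Among the light chains that join SLC3A2 (SLC7A5, SLC7A6, SLC7A7, SLC7A8, SLC7A10 and SLC7A11), the make-up shifted. SLC7A5 held 83.9 ± 0.269% of the summed light chain FPKM in Con sh and 65.8 ± 1.34% in CD146 sh, and SLC7A11 held 4.46 ± 0.358% and 12.7 ± 1.52% (SD, n = 3). The light chain sum per SLC3A2 was 3.72 ± 0.105 in Con sh and 2.8 ± 0.125 in CD146 sh. SLC7A7, the y+LAT1 chain that exports arginine and lysine, rose (log2 fold change 0.45, SE 0.07, edgeR adjusted p = 5.4e-07), from 4.55 to 5.14 FPKM in Con sh to 6.38 to 6.73 in CD146 sh. SLC7A6, the y+LAT2 chain, was not called, at -0.08 (SE 0.05, edgeR adjusted p = 0.184).

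The SLC43 carriers, which take up leucine and other large neutral amino acids without SLC3A2, rose as SLC7A5 fell. SLC43A1 (LAT3) was at 3.66 to 4.28 FPKM in Con sh and 9.98 to 10.9 in CD146 sh, and SLC43A2 (LAT4) at 0.98 to 1.13 and 2.6 to 3.12. Both log2 fold changes were 1.45 (SE 0.08 and 0.09, edgeR adjusted p = 3.5e-19 and 2.7e-17). Their joint share of the FPKM of all LAT carriers was 3.26 ± 0.293% in Con sh and 16.9 ± 0.704% in CD146 sh, and 25.3 ± 0.575% in pLVX. The LAT sum nevertheless was 155 ± 4.13 FPKM in Con sh and 79.1 ± 3.42 in CD146 sh (SD, n = 3).

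**Figure D2:**
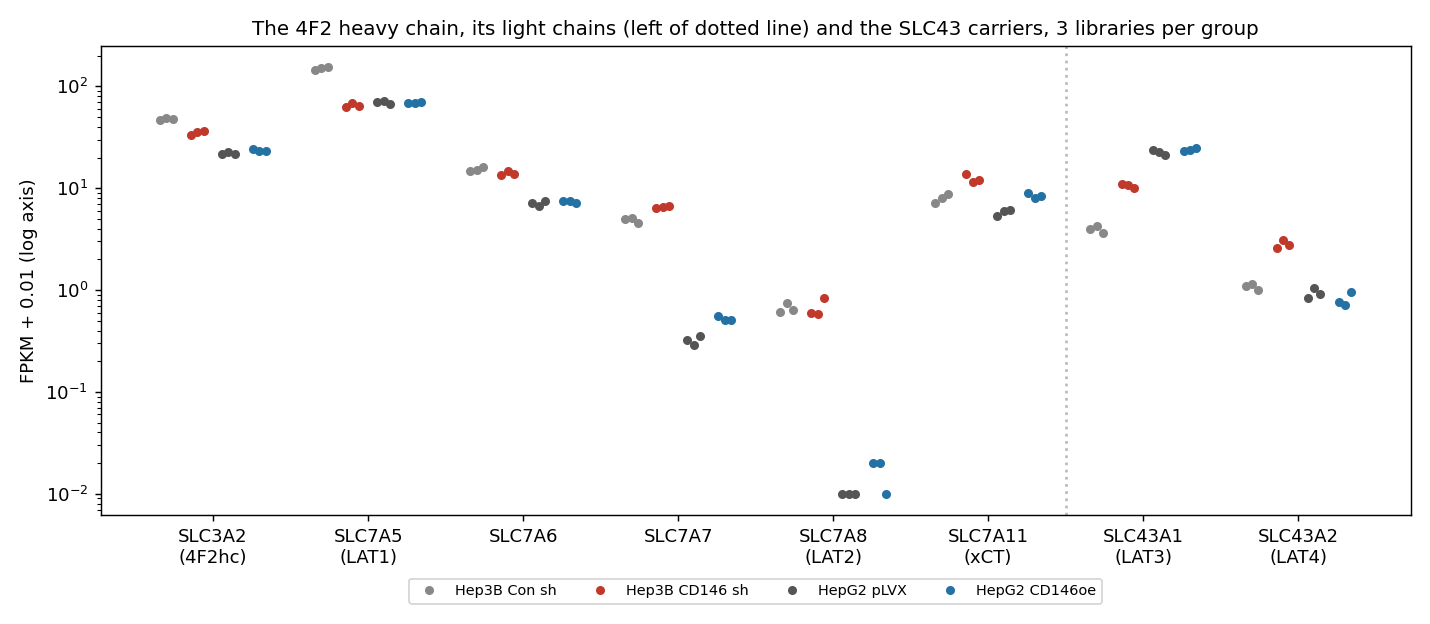
FPKM + 0.01 (log axis) of SLC3A2, 5 of its light chains and the SLC43 carriers in each of 3 libraries per group, coloured by group. SLC7A5 is the most abundant light chain in all 4 groups; in CD146 sh it is lower than in Con sh while SLC7A11, SLC7A7, SLC43A1 and SLC43A2 are higher.

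SLC7A1 (CAT1), the main carrier of arginine and lysine in many proliferating cells, was at 29.7, 32.2 and 32.5 FPKM in Con sh and 42.2, 44.4 and 44.3 in CD146 sh. The groups were apart by more than their spread, with a log2 fold change of 0.51 (SE 0.04, edgeR adjusted p = 6.9e-13). SLC7A2 (CAT2), its paralog, fell by 0.41 on the log2 scale (SE 0.05, edgeR adjusted p = 1.3e-09). SLC7A1 spans 29509410 to 29595688 on the minus strand of chromosome 13.

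SLC38A2 and SLC38A1 rose after knockdown, while of the other members that carry glutamine SLC1A5 was not called and SLC38A5 was lower. SLC38A2, induced by amino acid shortage and by hypertonic medium in many cells, was at 230, 240 and 254 FPKM in Con sh and 328, 297 and 308 in CD146 sh (log2 fold change 0.40, SE 0.04, edgeR adjusted p = 3.9e-10). SLC38A1 (SNAT1), a net importer of glutamine, was at 128, 135 and 143 FPKM and at 164, 158 and 160 (log2 fold change 0.29, SE 0.04, edgeR adjusted p = 3.8e-07). Neither gene's groups overlapped. Both lie on chromosome 12, minus strand, SLC38A1 at 46183063 to 46270017 and SLC38A2 at 46358189 to 46372867. The SLC38A2 to SLC38A1 ratio was 1.79 ± 0.0121 in Con sh and 1.93 ± 0.0604 in CD146 sh.

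SLC1A5, the glutamine exchanger, was at 73.4, 79.7 and 78.6 FPKM in Con sh and 76.6, 80.1 and 75.1 in CD146 sh. The groups overlapped, and the log2 fold change of 0.04 (SE 0.04, edgeR adjusted p = 0.472) leaves an interval of 2 SE from -0.05 to 0.13. Changes as large as those of the other 6 tested members lie outside that interval.

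SLC38A5 (SNAT5), which couples glutamine, histidine and serine movement to sodium and protons, had 195, 133 and 219 counts in Con sh and 7, 10 and 5 in CD146 sh. This was 2.91, 2.4 and 3.27 FPKM and 0.1, 0.14 and 0.09 FPKM. The fitted log2 fold change was -4.64 (SE 0.22), a 24.9-fold lower level, given as the value that chose the gene. In the replicate 3 library with more hepatocyte markers, HepG2 RNA at that marker share would bring 0.0603 CPM of SLC38A5, of 0.354 measured. Whether that library holds HepG2 RNA was not tested. The gene is on chromosome X, minus strand, at 48458537 to 48470256, with no annotated gene across it.

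SLC6A12 (BGT1), which takes up betaine as an osmolyte, had 39, 15 and 36 counts in Con sh and 277, 245 and 183 in CD146 sh, or 0.44, 0.2 and 0.41 against 2.87, 2.68 and 2.44 FPKM. The fitted log2 fold change, again the value that chose the gene, was 2.93 (SE 0.16). Other genes of osmolyte and betaine handling were mixed: of 9 tested, 3 rose and 5 fell, with a median of -0.23 against 0.00 over all genes, of which 26.8% rose and 28.5% fell. The taurine carrier SLC6A6 (0.95, SE 0.04), the myo-inositol carrier SLC5A3 (0.52, SE 0.04) and NFAT5, the transcription factor of the hypertonic response, rose. The choline carrier-like SLC44A2 fell by 0.67 on the log2 scale, and CHDH (-0.71), AKR1B1 (-0.37), SLC44A1 (-0.23) and ALDH7A1 also fell. SLC6A14 had a single count over all libraries labelled Hep3B, in CD146 sh replicate 3, and was not tested. That count is 0.0708 CPM, and HepG2 RNA at the marker share of that library would bring 0.00794 CPM. Where this single count came from was not tested.

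**Figure D3:**
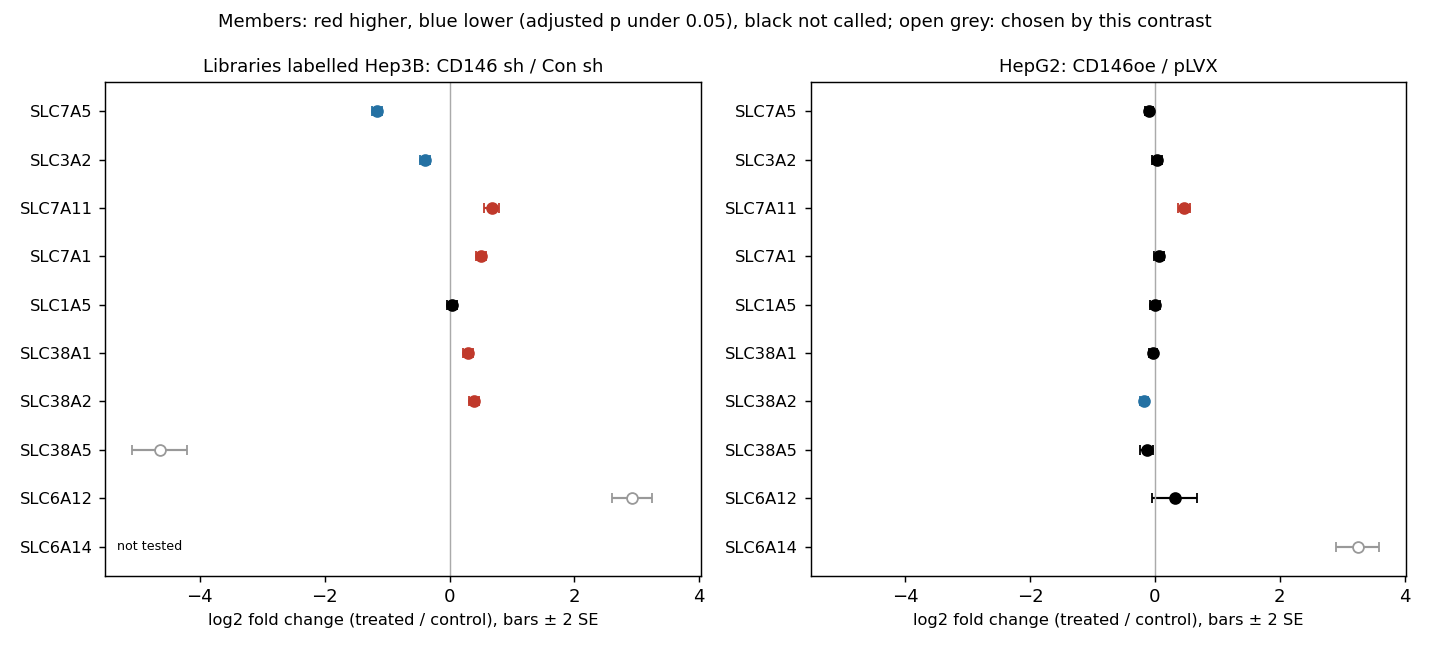
log2 fold change ± 2 SE (edgeR) of each member, CD146 sh over Con sh in the libraries labelled Hep3B (left) and CD146oe over pLVX in HepG2 (right); open grey points are values that chose the gene. The left panel spreads from SLC7A5 at -1.16 to SLC7A11 at 0.68 among tested members, and the right panel holds 7 of 9 tested members between -0.13 and 0.32 without a call.

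CD146 overexpression in HepG2 went with fewer called members. Of the 9 members not picked by this contrast, SLC7A11 rose 1.38-fold, SLC38A2 fell 1.12-fold and 7 were not called. Over all 15300 genes tested, 19.8% were called, 9.55% as higher and 10.3% as lower (48.1% of calls higher, against 73.3% with limma on FPKM), and the median gene moved by 0.12 in absolute log2 terms, so 2 of 9 is near the background share. The median over the 9 members was 0.00, as over all genes.

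SLC7A11 was at 5.32, 5.97 and 6.09 FPKM in pLVX and 8.92, 7.96 and 8.38 in CD146oe, without overlap (log2 fold change 0.47, SE 0.05, edgeR adjusted p = 1.5e-10). Its share of the light chains was 6.98 ± 0.566% in pLVX and 9.84 ± 0.559% in CD146oe. The transcript was thus higher where CD146 was raised in HepG2 and also where it was lowered in the libraries labelled Hep3B. SLC38A2 was at 180, 170 and 178 FPKM in pLVX and 176, 158 and 161 in CD146oe. Its FPKM ranges overlapped, while the scaled counts (1135 to 1210 and 1010 to 1117 CPM) did not, at a log2 fold change of -0.17 (SE 0.03, edgeR adjusted p = 7.0e-05). On FPKM with limma the change was -0.10 and was not called (adjusted p 0.22 to 0.395 over 3 settings).

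For the leucine carrier, SLC7A5 was at 70.2, 72.6 and 66.8 FPKM in pLVX and 68.3, 69.2 and 70 in CD146oe (log2 fold change -0.09, SE 0.03, edgeR adjusted p = 0.0582). Without pLVX replicate 3 the call passed, at -0.12 (edgeR adjusted p = 0.0184). SLC3A2 was at 21.6, 22.6 and 21.9 FPKM and at 24.2, 23.4 and 23.2, with a log2 fold change on scaled counts of 0.03 (SE 0.04, edgeR adjusted p = 0.71). These intervals of 2 SE, -0.15 to -0.02 for SLC7A5 and -0.05 to 0.10 for SLC3A2, hold no change of the size seen after knockdown.

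SLC1A5 (log2 fold change 0.00, SE 0.04), SLC38A1 (-0.03, SE 0.03) and SLC7A1 (0.07, SE 0.04) had edgeR adjusted p of 0.982, 0.55 and 0.181. SLC38A5 was at 13.8, 13.5 and 13.6 FPKM in pLVX and 13, 13.9 and 12.6 in CD146oe (-0.13, SE 0.05, edgeR adjusted p = 0.081). It passed, at -0.17 (edgeR adjusted p = 0.0355), without CD146oe replicate 2. SLC6A12 had 36, 53 and 39 counts in pLVX and 66, 49 and 60 in CD146oe, and at this depth its log2 fold change of 0.32 (SE 0.18, edgeR adjusted p = 0.238) has an interval of 2 SE from -0.05 to 0.69.

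SLC6A14, which concentrates neutral and cationic amino acids and is raised in several epithelial tumours, was picked for its rise here. It had 9, 29 and 18 counts in pLVX and 203, 169 and 215 in CD146oe, or 0.16, 0.38 and 0.28 against 2.95, 2.8 and 2.81 FPKM. The groups were far apart, with a fitted log2 fold change of 3.25 (SE 0.17). The gene lies on chromosome X, plus strand, at 116436622 to 116461458.

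The response to CD146 was then compared between lines in 1 fit of the 12 libraries, as the CD146oe change minus the change from CD146 sh to Con sh, both in the direction of higher CD146. Line, medium and method of perturbation (knockdown or overexpression) differ together here and cannot be told apart. MCAM itself moved by -2.25 on the log2 scale after knockdown and by 6.37 with overexpression. Of the 18870 genes tested, 36.4% differed between lines, and so did 6 of the 7 members not picked by either contrast. SLC7A5 differed by -1.25 (SE 0.06, edgeR adjusted p = 2.1e-25): it was 1.16 higher with more CD146 in the libraries labelled Hep3B and 0.09 lower in HepG2, on the log2 scale. SLC7A11 differed by 1.15 (SE 0.09, edgeR adjusted p = 4.9e-17), with opposite signs in the lines. SLC7A1 differed by 0.59 (edgeR adjusted p = 5.4e-12), SLC3A2 by -0.37 (7.6e-07), SLC38A1 by 0.26 (2.5e-04) and SLC38A2 by 0.24 (0.00127). SLC1A5 did not pass, at 0.04 with an interval of 2 SE from -0.08 to 0.16.

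The control libraries give the starting level of each line, and share their samples with the contrasts above. Line, vector and medium differ together here and cannot be told apart. Of 17401 genes tested between pLVX and Con sh, 85.2% were called. Of the 7 members not picked by either contrast, 6 were lower in HepG2 and SLC7A11 was not called. SLC38A1 was lower by a log2 difference of -1.95 (SE 0.04, edgeR adjusted p = 4.1e-70), with 27.1 to 27.8 FPKM in pLVX and 128 to 143 in Con sh. SLC1A5 (-0.77), SLC3A2 (-0.76), SLC7A5 (-0.74) and SLC7A1 (-0.48) were lower in pLVX, each with SE 0.04. SLC38A5, SLC6A12 and SLC6A14 were picked with values of these control libraries, so their levels here are a description without a test. The log2 difference of SLC38A5, pLVX over Con sh, was 2.59 (SE 0.07) and that of SLC6A12 was 0.98 (SE 0.23).

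SLC6A14 averaged 1.24 CPM, unscaled, in pLVX and had no count in Con sh, where 3 counts in the shallowest library are 0.218 CPM. The pLVX mean was 5.69 times that limit and rested on 9 to 29 counts per library. SLC38A2 was barely lower (-0.10, SE 0.04, edgeR adjusted p = 0.011) and SLC7A11 was not called (-0.10, SE 0.06, edgeR adjusted p = 0.0783). The call on SLC38A2 was lost without Con sh replicate 3 (-0.07) or pLVX replicate 2 (-0.08), and that on SLC7A11 was gained in 8 of 14 alternatives. The choice of scale matters in this contrast: on FPKM all genes shifted by a median of -0.35 in log2 terms against the scaled counts, and the share of calls that were higher in HepG2 was 36.3% in place of 49.5%. The SLC38A2 to SLC38A1 ratio within a library does not depend on that scale, and was 6.45 ± 0.28 in pLVX and 1.79 ± 0.0121 in Con sh.

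A list of 34 other plasma membrane amino acid carriers stood beside the members. After knockdown 14 were tested, of which 7 rose and 5 fell, with a median of 0.25 against 0.00 over all genes, where 26.8% rose and 28.5% fell. SLC6A6, SLC43A1 and SLC43A2 had the smallest adjusted p. SLC6A6 was at 39.2 to 41.2 FPKM in Con sh and 74.7 to 77.7 in CD146 sh. SLC1A4 (ASCT1), a carrier of serine and alanine, fell by 0.65 on the log2 scale after knockdown and rose by 0.29 with overexpression (SE 0.05 and 0.04, edgeR adjusted p = 4.5e-14 and 9.4e-07). In HepG2 16 were tested, of which 5 rose and 3 fell, with a median of 0.00, beside 9.55% and 10.3% of all genes. SLC1A2 (EAAT2), a glutamate carrier, fell by 0.29 (SE 0.04, edgeR adjusted p = 1.2e-07) and SLC7A2 by 0.16 (SE 0.03, edgeR adjusted p = 3.3e-04), and neither was called by limma on FPKM. Between controls, where 85.2% of all genes were called, 9 of 19 were higher and 9 lower in HepG2, among them SLC38A3 (SNAT3), the liver's glutamine carrier, at 21.7 to 22.6 FPKM in pLVX and 0 to 0.05 in Con sh.

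**Figure D4:**
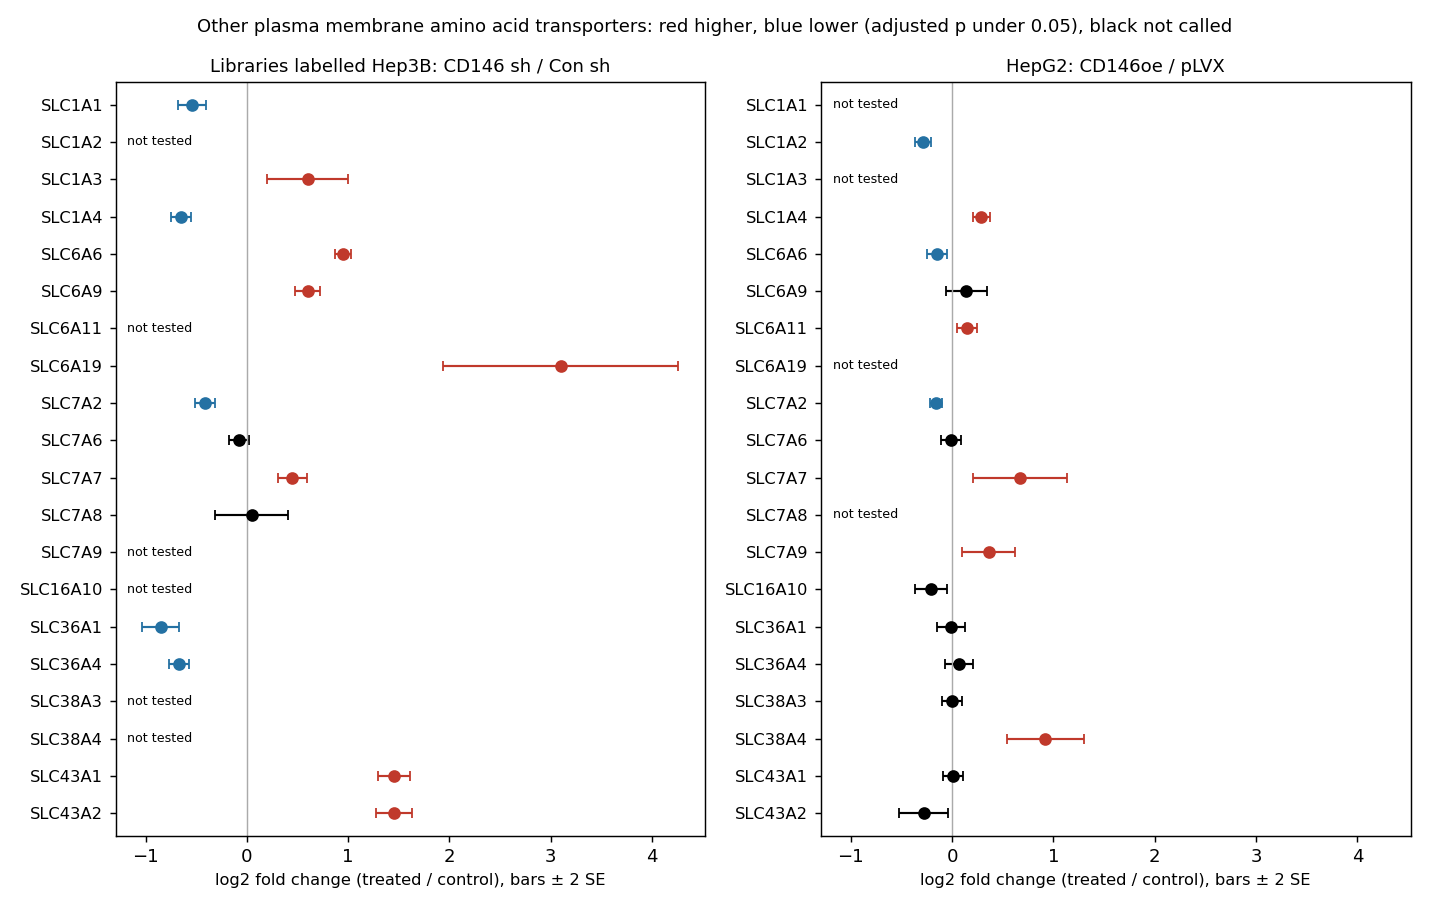
log2 fold change ± 2 SE (edgeR) of the other amino acid carriers tested in at least 1 line, with the knockdown on the left and the overexpression on the right. SLC43A1 and SLC43A2 lie at 1.45 on the left, SLC1A4 is lower on the left and higher on the right, and SLC6A19, at 0 to 0.06 FPKM in Con sh, has the widest error bar.

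Genes that act upstream or downstream of the carriers moved in both directions. Among 27 integrated stress response genes, 26 were tested after knockdown, of which 14 rose and 8 fell (median 0.24), where 26.8% of all genes rose and 28.5% fell. ATF4 itself fell by 0.19 on the log2 scale, and PSAT1, PHGDH, PSPH, CEBPB, ATF5, PCK2 and XPOT also fell. Among those that rose were ATF3 (0.98), CTH (1.13), which makes cysteine from cystathionine, and VLDLR (0.81). In HepG2 25 were tested, of which 12 rose and 1 fell (median 0.17), beside 9.55% and 10.3% of all genes, with ATF3 at 1.44, PPP1R15A at 0.86 and DDIT4 at 0.79. SLC7A11 is itself a known target of ATF4 and of NRF2, and whether either factor had a part in its rise was not tested.

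Among 27 tested genes of amino acid sensing upstream of mTORC1, 6 rose and 10 fell after knockdown (median -0.07), and 4 rose and 1 fell of 28 in HepG2 (median 0.02). These called shares are near those of all genes, 55.3% after knockdown and 19.8% in HepG2. The leucine sensor SESN2 rose in both lines, by 0.91 (SE 0.1) and 0.63 (SE 0.09), with edgeR adjusted p of 1.9e-10 and 7.0e-08. SESN3 rose by 1.12 and FNIP1 by 0.49 after knockdown, and in HepG2 SESN1 rose by 0.33 and FNIP2 fell by 0.47 on the log2 scale.

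In glutamine metabolism 5 of 15 tested genes rose and 5 fell after knockdown (median -0.01), and 1 rose and 7 fell of 16 in HepG2 (median -0.07), where 55.3% and 19.8% of all genes were called. GFPT1, which spends glutamine on hexosamines, rose by 0.72 after knockdown, while OAT and GLUD1 fell by 0.73 and 0.58 on the log2 scale. In HepG2 GLUL, ALDH18A1 and GLUD1 fell by 0.23, 0.21 and 0.19, and limma on log2(FPKM + 0.1) did not call ALDH18A1 or GLUD1. In the glutathione and NRF2 group, which contains SLC7A11, 6 rose and 5 fell of 16 after knockdown, and 4 rose and 2 fell of 15 in HepG2, against the same shares of all genes. GCLC, the catalytic subunit of the first enzyme of glutathione synthesis, fell by 0.57 on the log2 scale after knockdown and GPX4 rose by 0.58. In HepG2 GCLM, the modifier subunit, rose by 0.41 on the log2 scale, which limma on log2(FPKM + 0.1) did not call.

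Of 12 genes whose products stabilise, ubiquitinate or accompany carriers, 9 rose and 2 fell after knockdown (median 0.44), and 2 rose and 3 fell of 10 tested in HepG2 (median -0.05), where 55.3% and 19.8% of all genes were called. SGK1, a kinase that restrains the ubiquitin ligase NEDD4L, rose by 1.87 (SE 0.05, edgeR adjusted p = 5.5e-29) after knockdown and fell by 0.49 (SE 0.07, edgeR adjusted p = 9.2e-08) with overexpression. NEDD4L itself rose by 0.28 (SE 0.06, edgeR adjusted p = 5.0e-05) after knockdown and was not called with overexpression (-0.07, SE 0.03, edgeR adjusted p = 0.159). BSG (CD147) rose by 0.84 and fell by 0.21 in the same order, and the fall was not called by limma on log2(FPKM + 0.1). CD44, whose variant forms stabilise SLC7A11, rose by 0.52 after knockdown. In HepG2 it had only 11 to 19 counts in pLVX and 9 to 14 in CD146oe. It was not called there, with a wide interval of 2 SE from -1.27 to 0.15. The lists were chosen with earlier results known, so these counts describe the groups and are not independent evidence of a direction.

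The members' profiles over all 12 libraries were compared with 11621 genes, as the root mean square distance between centred log2 CPM. The genes nearest to SLC38A5 were MAOB (0.66), ELOVL6 (0.79) and CADM1 (0.81), all far under the 2.48 that is the spread of SLC38A5 itself. MAOB, a monoamine oxidase, was at 10.9, 2.39, 72.9 and 73.8 CPM in Con sh, CD146 sh, pLVX and CD146oe, beside 10.4, 0.408, 61.6 and 56.6 CPM for SLC38A5. Nearest to SLC6A14 were CCDC170 (0.26), GBP1 (0.56) and EREG (0.57), against a spread of 1.98. CCDC170 was at 0.0658, 0.0969, 2.06 and 14.7 CPM in the same order of groups. Nearest to SLC6A12 were SPAG4 (0.40), DIP2C-AS1 (0.41) and an unnamed gene, ENSG00000188897 (0.45), against 0.99. Of the partners, SLC3A2 ranked 677 of 11621 from SLC7A5, nearer than any other member (next SLC1A5, 4285). From SLC3A2, SLC7A5 ranked 3150, behind SLC1A5 (1209) and SLC38A2 (2964). The distance is not scaled for size of change, so a smaller move in the same direction also counts as distance. These distances are a description over 12 libraries, which share 2 lines and 4 groups.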

How the data were processed

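Read counts per Ensembl gene were deposited by the authors in 1 table of all 12 libraries. FPKM values, fragments scaled for gene length and depth and also deposited by the authors, were used to compare levels between genes. Per the submitters' processing notes, cutadapt 1.9.1, HISAT2 2.2.1 and HTSeq 0.6.1 were used. The genome build, annotation and strand setting are not given in the sources used here. Of 61806 IDs, 61757 matched a symbol. The tests on counts used edgeR 4.0.16 in R 4.3.3, by quasi-likelihood, after filterByExpr and TMM scaling. Each line was fitted alone for its own contrast. The control libraries of both lines were fitted together for the levels between lines, and the 12 libraries together for the difference of effects. Benjamini-Hochberg adjustment ran over all tested genes, and calls have adjusted p under 0.05. SE is the log2 fold change over the root of F. CPM are TMM-scaled unless said otherwise. DESeq2 1.42.0, limma 3.58.1 on log2(FPKM + 0.1) or log2(FPKM + 1), other filters, a replicate block and leaving out each library were alternatives. The named genes were all members, up to 3 genes per list and contrast with the smallest adjusted p at 5 CPM or more, and the 3 protein-coding genes (annotated so in GENCODE 29) nearest to SLC38A5, SLC6A12 and SLC6A14. Some genes that this rule or the overlaps name are not reported here. Other genes named (ATF4, NFAT5, CD44, SLC7A6, SLC7A7, SLC1A4 after knockdown, SLC7A2 after knockdown, SLC6A19) were added for their role or after their values were seen. So were NEDD4L and the other genes given as also falling after knockdown among the osmolyte and stress response genes. The members and lists were chosen with earlier results of these data known.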

Additional observations from a re-analysis of the deposited data

Results flagged for a closer look

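The 6 members and 5 other carriers named by the rule are listed here because the effect of higher CD146 differed between HepG2 and the libraries labelled Hep3B, by the test of the difference itself (edgeR, 12 libraries, adjusted p under 0.05, which 36.4% of all tested genes passed). On the log2 scale the difference, HepG2 minus the libraries labelled Hep3B, was -1.25 for SLC7A5, -0.37 for SLC3A2, 1.15 for SLC7A11, 0.59 for SLC7A1, 0.26 for SLC38A1 and 0.24 for SLC38A2. Among the other carriers it was 1.46 for SLC43A1, 1.18 for SLC43A2, 0.80 for SLC6A6, -0.57 for SLC7A2 and -0.36 for SLC1A4. In all, 10 of the 20 other carriers tested passed: SLC6A9 (0.75), SLC7A7 (1.13), SLC36A1 (-0.85), SLC36A4 (-0.59) and SLC6A19 (4.17), a gene at 0 to 0.06 FPKM in Con sh, did so too. SLC7A11 rose with both the knockdown and the overexpression and SLC7A2 fell with both, while SLC38A2 and SLC6A6 rose after knockdown and fell with overexpression. For SLC1A4 the effect of higher CD146 was upward in both lines, at 0.65 and 0.29, and differed in size. In all of these differences line and method of perturbation, knockdown or overexpression, cannot be told apart.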

How the results depend on the processing

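The 6 member calls after knockdown and the 6 in the difference between lines were kept in all 14 and 19 alternatives run, and leaving out 1 library gave 6 to 6 in both. In HepG2 the 2 member calls became 1 under limma on log2(FPKM + 0.1) and on log2(FPKM + 1), since SLC38A2 was lost, and were 2 to 3 with a library left out. All called genes there were 3037 with edgeR, 1614 with DESeq2, 1029 and 970 with limma on log2(FPKM + 0.1) and log2(FPKM + 1), and 1586 with limma and a mean FPKM of at least 0.5; the share of calls that rose was 48.1% with edgeR and 73.3% with limma on log2(FPKM + 0.1). With that FPKM filter SLC7A1 was called at 0.15 (limma adjusted p = 0.0482). On FPKM with limma on log2(FPKM + 0.1), all genes in HepG2 shifted by a median of 0.07 in log2 terms against the scaled counts. The cause of these changes was not tested. Signs reversed only for values near 0: SLC1A5 after knockdown was -0.01 without Con sh replicate 1 (-0.01 to 0.06 over the libraries left out); SLC1A5 in HepG2 was -0.00 with no filter and with DESeq2, and -0.01 without pLVX replicate 3, CD146oe replicate 2 or CD146oe replicate 3 (-0.01 to 0.02 over the libraries left out); SLC38A1 in HepG2 was 0.04 in the 3 limma settings. Among named genes outside the members, 21 results of 9 genes, all in HepG2, lost their call with the direction kept. With a library left out, 14580 to 15035 of all genes were called between controls (14817, or 85.2%, with all libraries). Among members not picked by either contrast, SLC38A2 lost its call there, as given above. SLC7A11 gained one without Con sh replicate 1 (-0.2, edgeR adjusted p = 0.00059), and the other calls held. The labels do not say whether replicate numbers pair the libraries. Deviations from the group means of same-numbered libraries correlated at 0.033 or less. After knockdown they were 0.02 to 0.033, beside -0.03 to 0.007 for unlike numbers. Such small values cannot settle whether the libraries were paired. With the replicate number as a block, member calls were 6 after knockdown, 2 in HepG2 and 6 in the difference. Between controls the block added a call on SLC7A11 (-0.11, edgeR adjusted p = 0.0448). FPKM rest on 2 decimals, so SLC6A12, SLC6A14 and SLC38A5 near 0 are read from counts.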

Other observations

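SLC3A2 went against its surroundings after knockdown. Of 48 tested genes within 1 Mb of it on chromosome 11 (GENCODE 29 positions), 32 rose and 6 fell. Over all genes tested, 26.8% rose and 28.5% fell. The neighbours had a median log2 fold change of 0.40, while SLC3A2 was at -0.40. In HepG2 the 43 tested neighbours had a median of -0.01, with 2 up and 4 down, beside 9.55% and 10.3% of all genes. Around SLC7A5, on chromosome 16, 9 of 27 neighbours rose and 3 fell after knockdown (median -0.02), beside 26.8% and 28.5% of all genes. Around SLC38A5, on chromosome X, 5 of 43 rose and 10 fell after knockdown (median -0.05), beside the same shares of all genes. No test of these groups of neighbours was run.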
